A study of Mus musculus with 4 samples.

Results

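The probe sets described here measure transcripts of the extracellular and cell-surface metalloproteinases and of their inhibitors in heart ventricles of mouse embryos. They were chosen by name: each names a single gene whose symbol on the array's annotation is Mmp, Adam, Adamts or Timp followed by digits and at most a last letter. The rule found 65 of the genes that probe sets of this array name singly, 18193 in all, and 116 of the 45037 probe sets that are not controls. Another 5 probe sets name a gene of these families together with other genes and were left out.

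The ventricles were measured on 4 Affymetrix MOE430v2 arrays. The 2 groups, with 2 arrays each, were wild-type embryos (WT) and their littermates deficient in HDAC2 (KO), a class I histone deacetylase. All embryos were at embryonic day 17.5 in a C57BL/6 x SV129 background, and none had a further treatment named in the labels. RNA was pooled from 2 animals for each WT array and from 3 for each KO array, and 6 µg of it was labelled per array. The sources used here do not give how Hdac2 was inactivated or whether it was lost in all cells, and pool size differs with genotype. No label tells whether the pools of a group came from separate animals, so the p-values cover the spread between pools alone, and part of that spread may be technical.

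The matrix metalloproteinases (MMPs) are zinc enzymes made as inactive precursors that cut collagens and other matrix proteins outside the cell, some secreted and some anchored in the cell membrane. The ADAMs are membrane proteins, many of which release the outer parts of other membrane proteins such as growth factor precursors and Notch, while the secreted ADAMTS enzymes cut proteoglycans such as versican or trim procollagens. The tissue inhibitors of metalloproteinases (TIMPs) bind the active enzymes. In the heart these families are known for shaping the valves, trabeculae and matrix in development and for matrix turnover after injury.

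The single member that passed the test was Mmp13, a collagenase best known from growing bone and cartilage, and it lies at the start of a run of 10 neighbouring Mmp genes on mouse chromosome 9 (Mmp13, Mmp12, Mmp1b, Mmp3, Mmp1a, Mmp10, Mmp8, Mmp27, Mmp20 and Mmp7, in the order of assembly GRCm38.p6). The 250 bases before its start site (RefSeq, GRCm38.p6, chr9:7272264-7272513, plus strand) are shown because Mmp13 is the gene of these families that differed. Capitals mark the letters of the AP-1 motif (TGAGTCA or TGACTCA, both strands of 1 site) and of the Runx motif (ACCACA or TGTGGT, both strands), which name factors known to act on collagenase genes.
Mmp13: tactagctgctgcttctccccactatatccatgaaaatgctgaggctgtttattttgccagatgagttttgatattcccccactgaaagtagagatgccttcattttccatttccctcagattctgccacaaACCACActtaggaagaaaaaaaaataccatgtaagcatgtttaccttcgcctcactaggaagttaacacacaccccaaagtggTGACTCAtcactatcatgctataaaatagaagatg

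The Runx letters began 118 bases before the start and the AP-1 letters 35 bases before it. The table of RefSeq windows, each of 300 bases with 50 of them after the start, held 42 windows for 37 of the 65 member genes. The AP-1 letters stood in 9 of these 42 windows (21.4%), against 5.20% of all 32851 windows, and the Runx letters in 10 (23.8%, against 16.8%). Letters of both motifs stood in the windows of Mmp13 and Mmp1b, 4.76% of the member windows and 0.944% of all. The run on chromosome 9 held most of the AP-1 letters: all 10 of its genes had a window and 7 of them had the motif. Those sites are shown because neighbours of Mmp13 carry the motif too and, where the array has a probe set for them, were not detected (RefSeq, GRCm38.p6). Each is given with its flanking letters and the motif in capitals, which reads TGACTCA at Mmp13 and TGAGTCA at the others.
Mmp13: ccccaaagtggTGACTCAtcactatcatg
Mmp12: gacatcaacagTGAGTCAgatagaggatt
Mmp1b: gttacaaagccTGAGTCAtatagcctctg
Mmp3: ggaagcaattaTGAGTCAgttttcgggtg
Mmp1a: gttgtcaaccaTGAGTCAcatagcctctg
Mmp10: tagcacccatgTGAGTCAtgcttagtgac
Mmp7: aagtgtgcaaaTGAGTCAcctatttccac

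In order, the 7 stretches lie at chr9:7272468-7272496, chr9:7347319-7347347, chr9:7388102-7388130 (minus strand), chr9:7445765-7445793, chr9:7464057-7464085, chr9:7502268-7502296 and chr9:7692016-7692044. Of the 9 genes of the run that have a probe set here, Mmp13 alone had a Present call on any array. A Present call is the authors' detection call for a probe set on an array. A match of letters describes the window and does not show that a factor binds there.

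Before the members, the labels and the tissue were checked. At the brightest probe set of Hdac2, 1445684_s_at, the signal was 1188 and 1421 in the WT pools and 31.4 and 21.0 in the KO pools, so the titles and this gene go together, although GEO's source field calls the 2 KO samples wild type. All 9 markers of cardiomyocytes, such as Myh6 and Tnnt2, had a Present call, and 0 of 9 passed the test in limma (0 at unadjusted p under 0.05). Of 4 atrial genes tested, Sln, sarcolipin, was lower, with 1043 and 1111 in the WT pools and 486 and 748 in the KO pools (-0.84 ± 0.17, adjusted p = 0.0249). The other 3 did not pass and had positive differences, with Myl4 at 0.026, Myl7 at 0.15 and Nppa at 0.12. The list of skeletal muscle genes, of fast and embryonic fibres, summed to signals of 13055 and 12217 in the WT pools and 1238 and 1208 in the KO pools. All 10 tested had a negative difference, and 8 of the 10 passed the test, where 0.960% of all probe sets tested were lower. Several of them, such as Tnnc2, Tnnt3 and Mylpf, entered the test through Present calls on the WT arrays alone. Xist, the X-inactivation RNA, read 80.5 and 90.1 in the WT pools against 548 and 794 in the KO pools at 1436936_s_at and 1.3 and 6.1 against 414 and 797 at 1427262_at. Of the Y chromosome, Eif2s3y was lower at -1.34 ± 0.23 (1417210_at, adjusted p = 0.0105 in limma) and Uty at -1.29 ± 0.23 (1426598_at, adjusted p = 0.0138). The ratio of signals from the 3' end to the 5' end of actin, which rises as RNA gets shorter, came to 1.85 and 2.32 in the WT pools and 2.75 and 2.42 in the KO pools. Over the 19065 probe sets tested, log2 signals correlated at 0.983 within WT and 0.981 within KO and at 0.965 to 0.972 across genotypes.

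A probe set entered the test if both WT arrays, or both KO arrays, called it Present. This held for 45 of the 116 member probe sets, which measure 28 of the 65 genes. The other 71 probe sets, which include every probe set of 37 genes, were not tested, and 62 of them were Present on no array. All 4 TIMPs were tested, 4 of 5 membrane-bound MMPs, 9 of 15 ADAMTS genes, 8 of 28 ADAMs and 3 of 13 secreted MMPs. The ADAMs without a tested probe set include the testis genes Adam2, Adam3, Adam5 and Adam18, which serve sperm function, and the secreted MMPs without one include the stromelysins Mmp3 and Mmp10, the neutrophil collagenase Mmp8 and the macrophage elastase Mmp12.

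**Figure D1:**
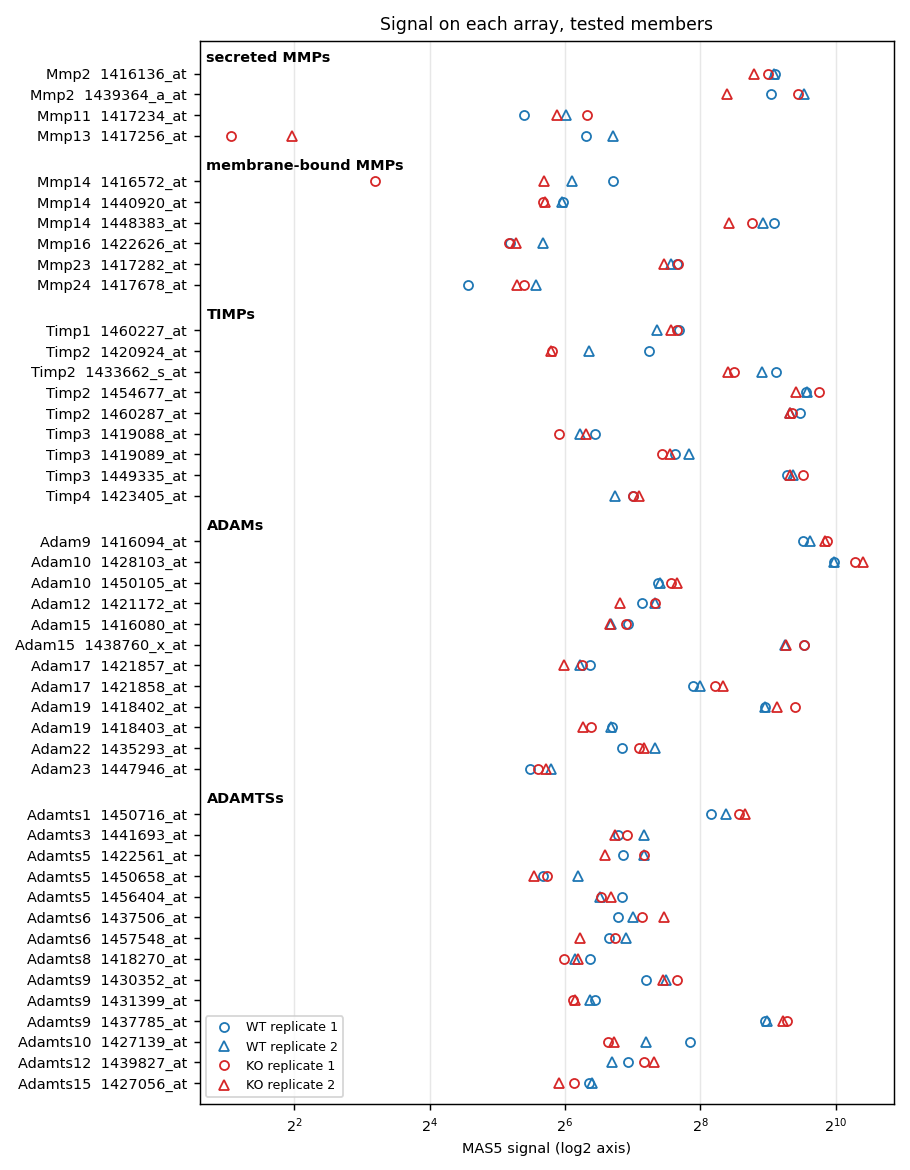
MAS5 signal (log2 axis) of each of the 45 tested member probe sets on the 4 arrays, in groups by family. Circles are replicate 1 and triangles replicate 2, blue WT and red KO. At Mmp13 both KO arrays (2.10 and 3.90) lie far below both WT arrays (79.1 and 105), while most other probe sets have their 4 arrays close together.

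Of the 45 tested, 1 was lower in KO past an adjusted p of 0.05 in limma (0.960% of all probe sets tested were) and 0 were higher (0.383% of all), so that 1 of 45 passed in either direction where 1.34% of all did. The count of lower members and that of all lower probe sets moved with the setting, as given in the last section. At an unadjusted p under 0.05 there were 6 lower and 6 higher, against 8.23% and 7.29% of all probe sets tested, which makes 12 of 45 or 26.7% against 15.5%. The groups did not overlap at 12 probe sets lower in KO and 9 higher, where 22.5% and 25.0% of all probe sets tested were separated in that way, and the sum of 21 of 45 compares with 47.5%. The median log2 difference of KO minus WT was -0.080 over the 45, against 0.014 over all probe sets tested. The direction of the 12 at unadjusted p under 0.05 differed by family: those of MMPs and TIMPs were all lower (5 probe sets of 3 genes), those of ADAMs were all higher (3 probe sets), and ADAMTS genes gave 1 lower and 3 higher. The difference between families was not tested.

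**Figure D2:**
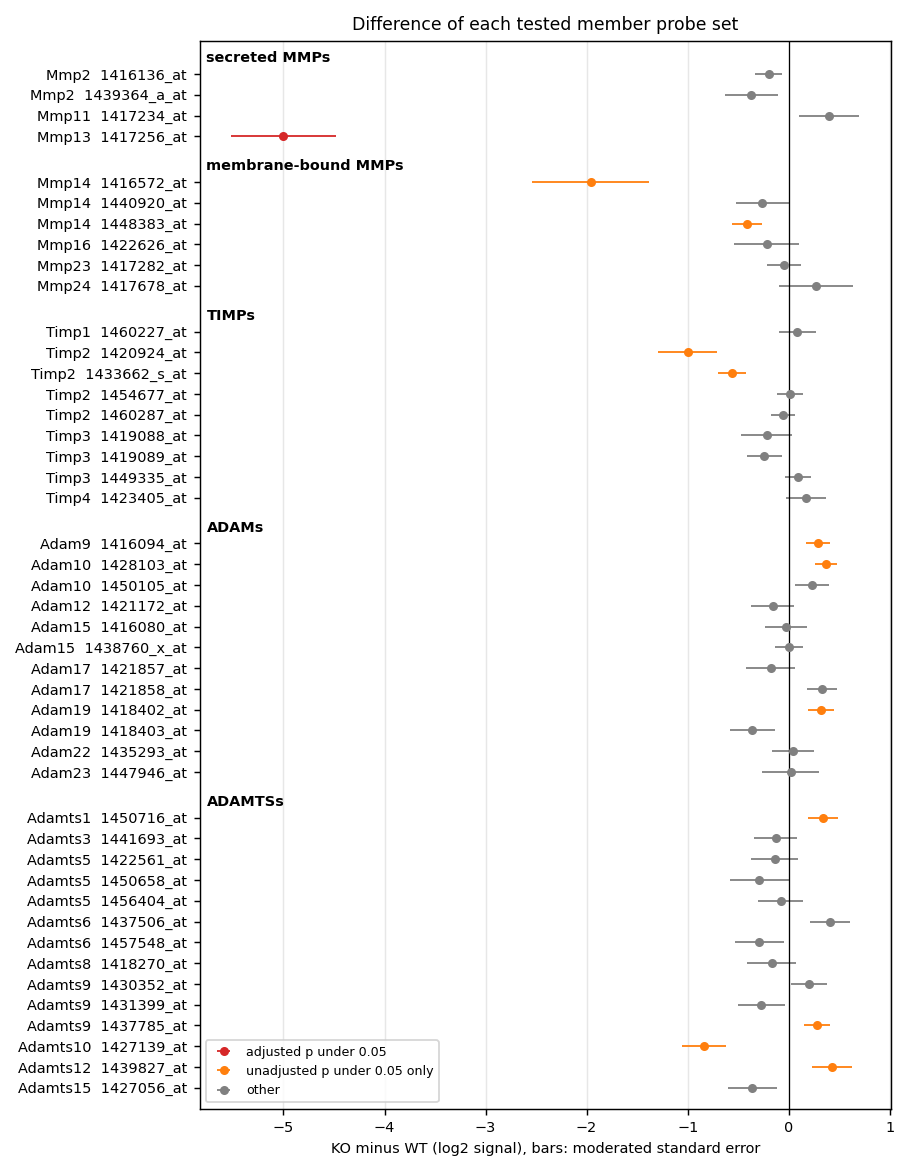
KO minus WT difference in log2 signal of the 45 tested member probe sets, with the moderated standard error from limma as bars (2 arrays per group). Mmp13, in red, stands at -5.00, and the orange points reach an unadjusted p under 0.05 only and lie between -1.96 and 0.43.

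Among the secreted MMPs, Mmp13 fell. Its probe set 1417256_at read 79.1 and 105 on the WT arrays and 2.1 and 3.9 on the KO arrays. Both WT arrays called it Present and both KO arrays Absent. Against the lowest signals called Present for any probe set on the KO arrays, the WT level was 15-fold higher (13.0 to 17.3 with any 1 array left out). The fitted difference was -5.00 ± 0.52 (SE) on the log2 scale (adjusted p = 1.56e-04 in limma). The KO signals lie below those lowest Present signals of 6.20 and 6.00, so the fitted difference is no bound. The call was lost without the filter on detection (adjusted p = 0.0976) and in the deposited signal log ratio (-4.65, adjusted p = 0.356). Calls were also lost there over the whole array. In the signal log ratio 0 of 19065 probe sets passed. Without the filter 30 of 45037 were lower and 7 higher, against 183 and 73 of 19065 in the fit reported.

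Mmp9, gelatinase B, an enzyme of osteoclasts and granulocytes, was not tested, since a single WT array called it Present. At 1416298_at it read 132 and 178 in the WT pools and 32.8 and 5.5 in the KO pools, with both KO arrays below both WT arrays. The dimmer probe set 1448291_at, Absent on every array, read 12.4 and 23.5 in the WT pools and 2.8 and 3.4 in the KO pools. Without the filter on detection, the 2 probe sets differed by -3.51 ± 0.75 (adjusted p = 0.281 in limma) and -2.47 ± 0.85 (adjusted p = 0.440). Of the 71 member probe sets that were not tested, 18 had both KO arrays below both WT arrays and 12 the reverse, and among all probe sets not tested the shares were 24.0% and 12.0%.

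Mmp2, gelatinase A, which cuts denatured collagen and basement membrane, showed no difference past the threshold. Its probe set 1416136_at read 549 and 546 in the WT pools and 512 and 441 in the KO pools (-0.20 ± 0.13, adjusted p = 0.483 in limma). Its probe set 1439364_a_at read 528 and 739 in the WT pools and 696 and 336 in the KO pools, with groups that overlap (-0.37 ± 0.26). Without KO replicate 1 the second probe set stood at -0.89 (adjusted p = 0.0178), and without KO replicate 2 at 0.16. Mmp11, a stromelysin of mesenchyme, read 42.2 and 64.9 in the WT pools and 80.4 and 59.0 in the KO pools (0.40 ± 0.30, adjusted p = 0.546).

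Some markers of mineralised tissue were lower in KO, as Mmp13 was. Of 11 genes of bone and hypertrophic cartilage, 9 had a probe set, 5 were tested and 2 of these were lower past the threshold. Of all probe sets tested 0.960% were, and the median difference over the 5 was -0.20. Ibsp, an acidic bone matrix protein, and Dmp1, a matrix protein of osteocytes, were lower (adjusted p = 4.09e-05 and 8.67e-04 in limma). Against the lowest signals called Present on the KO arrays, their WT levels were 32.6-fold and 9.89-fold higher. Both genes entered the test through Present calls on the WT arrays alone. Their KO signals, 1.1 and 0.2 for Ibsp and 0.6 and 0.9 for Dmp1, were called Absent and lay below those lowest signals. The other 3 did not pass: Sp7, a transcription factor of osteoblasts, stood at -0.20 ± 0.27, Ihh, a signal of growth cartilage, at -0.17 ± 0.30 and Pth1r, the receptor of parathyroid hormone, at 0.060 ± 0.18. Col10a1, the collagen of hypertrophic cartilage, was Present on no array, as were Mepe and Phex. The brightest probe sets of the 9 genes summed to 708 and 644 in the WT pools and 393 and 374 in the KO pools. For cartilage, 9 genes summed to 570 and 483 in the WT pools and 284 and 295 in the KO pools. All 4 tested had both KO arrays below both WT arrays, as 22.5% of all probe sets tested did. In limma 3 of the 4 had an unadjusted p under 0.05, where 8.23% of all probe sets tested were lower at that level. Hapln1 and Acan entered the test through the WT arrays alone, since the KO arrays did not both call them Present. Col11a1, a fibrillar collagen of cartilage, was the 1 that passed the threshold (-1.59 ± 0.23, adjusted p = 0.00270). Col2a1, Matn1, Matn3 and Chad were Present on no array.

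Osteoclast markers summed to 345 and 334 in the WT pools and 140 and 157 in the KO pools over 7 genes. The single osteoclast gene tested, Ctsk, was lower, as described below with the proteases, and Acp5, the tartrate-resistant phosphatase, read 86.5 and 55.8 in the WT pools and 9.6 and 10.6 in the KO pools with no Present call. Oscar, an osteoclast receptor that was Absent on every array, read 22.6 and 31.4 in the WT pools and 26.3 and 33.8 in the KO pools, with groups that overlap. Genes of granulocytes, another known source of Mmp9 and a source of Mmp8, summed to 424 and 393 in the WT pools and 376 and 433 in the KO pools, and 6 of the 9 were Present on no array. The part of any such tissue or cell type in the levels of Mmp13 and Mmp9 was not tested, and in these bulk samples fewer cells of a type and less RNA per cell cannot be told apart.

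**Figure D3:**
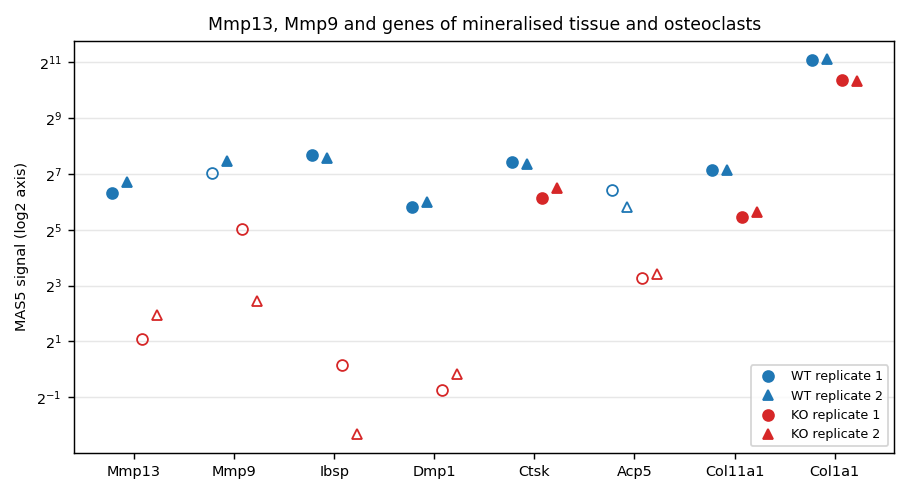
MAS5 signal (log2 axis) of Mmp13 (1417256_at), Mmp9 (1416298_at) and 6 other genes on the 4 arrays, with filled symbols where the array called the probe set Present. The 6 are Ibsp and Dmp1 of the bone list, Ctsk and Acp5 of the osteoclast list, Col11a1 of the cartilage list and Col1a1 of the matrix substrates. The 6 genes were chosen after their values were seen, and others of the same lists, such as Sp7, Pth1r and Oscar, had groups that overlap. All 8 genes shown have both KO arrays below both WT arrays, and the KO signals of Mmp13, Mmp9, Ibsp, Dmp1 and Acp5 have no Present call.

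Among the membrane-bound MMPs, Mmp14, which activates the precursor of Mmp2 with the help of Timp2, gave negative differences at all 3 of its tested probe sets and passed at none. The bright 1448383_at read 542 and 486 in the WT pools and 434 and 343 in the KO pools (-0.41 ± 0.15, adjusted p = 0.212 in limma). The dimmer 1416572_at read 105 and 68.4 in the WT pools and 9.2 and 51.6 in the KO pools, where KO replicate 1 stood far below the rest and was called Absent (-1.96 ± 0.58, adjusted p = 0.126). The groups did not overlap at either. At 1416572_at the difference was -0.71 without KO replicate 1 and -3.20 without KO replicate 2. It was -1.65 without WT replicate 1 and -2.26 without WT replicate 2. The third, 1440920_at, read 62.5 and 61.9 in the WT pools and 51.2 and 52.4 in the KO pools (-0.26 ± 0.26, 0.10 in the signal log ratio).

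The other membrane-bound members were dim or close to level. Mmp16, a relative of Mmp14, was Present on both WT arrays and on neither KO array at 1422626_at, yet its signals of 36.6 and 51.1 in the WT pools and 35.9 and 38.6 in the KO pools overlapped (-0.22 ± 0.32, adjusted p = 0.789 in limma). Mmp23 stood at -0.050 ± 0.17 and Mmp24, an MMP of the nervous system, at 0.27 ± 0.37, and Mmp17 was not tested.

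Timp2, the inhibitor that also takes part in the activation of Mmp2, was measured by 4 tested probe sets that differed among themselves. Probe set 1433662_s_at read 554 and 481 in the WT pools and 361 and 338 in the KO pools (-0.56 ± 0.14, adjusted p = 0.0707 in limma). Probe set 1420924_at read 151 and 81.6 in the WT pools and 56.0 and 55.2 in the KO pools (-1.00 ± 0.29, adjusted p = 0.116). At both of these the groups were separate, with KO lower. The brighter probe sets 1454677_at and 1460287_at read 751 and 763, and 711 and 640, in WT, and 862 and 678, and 656 and 642, in KO. Their differences were 0.014 ± 0.13 and -0.056 ± 0.12, so the lower values were seen at 2 of 4 probe sets. Probe set 1433662_s_at ranged from -0.66 to -0.46 with an array left out and turned to 0.15 in the signal log ratio. At 1420924_at the difference was -1.44 without WT replicate 2 and -0.55 without WT replicate 1.

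The other inhibitors showed no difference past the threshold. Timp1, an inhibitor that cells induce in injury and whose gene lies on the X chromosome, read 206 and 164 in the WT pools and 201 and 190 in the KO pools (0.086 ± 0.18, adjusted p = 0.858 in limma). Xist on the same chromosome was higher in KO, by 7.74-fold at 1436936_s_at. At 1427262_at Xist was 108-fold higher in KO against the lowest signals called Present on the WT arrays. Xist and genes of the Y chromosome differed between the genotypes, as given above. The part of Xist or of the sex of the embryos in the levels of Timp1 or of any other member was not tested. Timp3, the inhibitor that is bound to the matrix, read 623 and 657 in the WT pools and 729 and 640 in the KO pools at its brightest probe set, 1449335_at (0.094 ± 0.13), with -0.24 and -0.22 at the other 2. Timp4, an inhibitor known for its expression in the heart, read 128 and 107 in the WT pools and 128 and 136 in the KO pools (0.17 ± 0.20, adjusted p = 0.720). The groups overlapped at the 3 probe sets whose signals are given, and at Timp3 1419089_at (-0.24) both KO arrays lay below both WT arrays.

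None of the ADAMs passed. At their brightest probe sets the KO level of Adam9, Adam10, Adam17 and Adam19 was 1.23 to 1.30 times the WT level, while that of Adam12 was 0.897 times and that of Adam15 1.00 times. Adam10, which cuts Notch receptors and cadherins, read 1002 and 999 in the WT pools and 1248 and 1348 in the KO pools at 1428103_at (0.37 ± 0.11, adjusted p = 0.123 in limma). At 1450105_at it read 166 and 170 in the WT pools and 190 and 202 in the KO pools (0.23 ± 0.17), so both KO arrays lay above both WT arrays at each probe set. Adam9 read 732 and 784 in the WT pools and 937 and 920 in the KO pools (0.29 ± 0.12, adjusted p = 0.249). Adam17, the enzyme that releases tumour necrosis factor and ligands of the epidermal growth factor receptor, read 237 and 256 in the WT pools and 296 and 322 in the KO pools at 1421858_at (0.33 ± 0.15, adjusted p = 0.323), but its dimmer 1421857_at stood at -0.18 ± 0.24.

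Adam19, which is needed for the septa and valves of the heart, gave opposite signs at its 2 probe sets. The bright 1418402_at read 494 and 495 in the WT pools and 671 and 563 in the KO pools (0.32 ± 0.13, adjusted p = 0.281 in limma). The dim 1418403_at read 104 and 102 in the WT pools and 83.6 and 77.3 in the KO pools (-0.36 ± 0.22, adjusted p = 0.450). The groups were separate at both, in opposite directions. Adam12, an ADAM of mesenchyme and forming muscle, read 140 and 161 in the WT pools and 161 and 112 in the KO pools (-0.16 ± 0.21, 0.11 without KO replicate 2). Adam15, an ADAM of vessels, read 742 and 611 in the WT pools and 742 and 613 in the KO pools at 1438760_x_at. Adam22 and Adam23, which lack protease activity and are known as receptors in the nervous system, stood at 0.041 ± 0.21 and 0.020 ± 0.28.

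Among the ADAMTS genes, which lay on both sides of 0, none passed the test. Adamts1 read 284 and 334 in the WT pools and 379 and 403 in the KO pools (0.34 ± 0.15, adjusted p = 0.289 in limma). Adamts9, a versican protease of the developing heart, read 494 and 508 in the WT pools and 620 and 594 in the KO pools at 1437785_at (0.28 ± 0.13, adjusted p = 0.313), with 0.20 and -0.27 at its 2 dimmer probe sets. Adamts12 read 122 and 103 in the WT pools and 143 and 159 in the KO pools (0.43 ± 0.20, adjusted p = 0.316). At these 3 probe sets both KO arrays lay above both WT arrays. Adamts5, another protease of versican and aggrecan, had differences of -0.29 to -0.080 at its 3 probe sets, all with p above the threshold.

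Adamts10, which binds fibrillin microfibrils, read 231 and 147 in the WT pools and 99.8 and 106 in the KO pools at 1427139_at, with KO replicate 2 called Absent (-0.84 ± 0.22, adjusted p = 0.0909 in limma). The difference was -1.17 without WT replicate 2 and -0.52 without WT replicate 1. Adamts6, a relative of Adamts10, was Present on both KO arrays and on neither WT array at 1437506_at, with 110 and 128 in the WT pools and 141 and 176 in the KO pools (0.41 ± 0.20, adjusted p = 0.351, and -0.30 in the signal log ratio), whereas 1457548_at stood at -0.29 ± 0.24. Adamts3, a procollagen protease, stood at -0.13 ± 0.21, Adamts8 at -0.17 ± 0.24 and Adamts15 at -0.36 ± 0.24. Adamts2, the main procollagen protease, has no probe set of its own among the members.

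Probe sets of the same gene often disagreed. Of the 11 genes with several tested probe sets, 7 had differences of both signs and 4 had a single sign, namely Adam10, with positive values, and Mmp2, Mmp14 and Adamts5, with negative values. The widest gap was within Mmp14, from -1.96 to -0.26, followed by Timp2, from -1.00 to 0.014. The actin measure of RNA length given above was higher on both KO arrays than on both WT arrays, and its part in the gaps between probe sets was not tested.

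Genes that act with these enzymes were taken from 4 lists with 82 entries, of which 79 have a probe set and 56 were tested at the brightest tested probe set. Of these, 3 were lower and 0 higher in limma (0.960% and 0.383% of all probe sets tested were), and 9 were lower and 2 higher at unadjusted p under 0.05 (8.23% and 7.29% of all). The median difference was -0.071, against 0.014 over all probe sets tested. The lower count was 0 without the variance trend, without the filter on detection or in the signal log ratio. Over the whole array 19, 30 and 0 probe sets were lower in these settings, against 183 in the fit reported. Among 11 proteases that activate MMPs or work beside them, 1 was lower: Ctsk, cathepsin K, the collagen-degrading enzyme of osteoclasts, read 172 and 166 in the WT pools and 70.1 and 91.0 in the KO pools (-1.08 ± 0.21, adjusted p = 0.0206, or 0.0840 without WT replicate 1). Ctss, a cathepsin of macrophages, stood at -0.45 ± 0.17 (adjusted p = 0.228), and the list's median was 0.046. Furin, which removes the propeptide of membrane-bound MMPs and ADAMs, read 363 and 356 in the WT pools and 388 and 364 in the KO pools (0.062 ± 0.14).

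Among 18 inhibitors and cofactors tested, 0 passed in limma (2 at unadjusted p under 0.05, both lower). Serpinf1, a serpin abundant in bone and other mesenchyme, read 230 and 193 in the WT pools and 137 and 108 in the KO pools (-0.79 ± 0.19, adjusted p = 0.0687), and Bsg, the membrane glycoprotein that induces MMPs, read 5203 and 5286 in the WT pools and 4475 and 3420 in the KO pools (-0.42 ± 0.12, adjusted p = 0.0993). Among 14 matrix substrates, Col1a1 and Col1a2, the chains of type I collagen that Mmp13 and Mmp14 cut, were lower. Col1a1 read 2165 and 2206 in the WT pools and 1330 and 1301 in the KO pools (-0.73 ± 0.10, adjusted p = 0.00199), and Col1a2 differed by -0.55 ± 0.097 (adjusted p = 0.0118, or 0.102 without WT replicate 2). Of 13 membrane proteins that ADAMs shed, 0 passed (1 at unadjusted p under 0.05, higher), with Vcam1, an adhesion molecule, at 0.37 ± 0.12 (adjusted p = 0.160) and Cdh2, the cadherin of cardiomyocytes, at 0.16 ± 0.093 (adjusted p = 0.423).

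Markers of other cell types of the ventricle gave no gene past the threshold. Fibroblast genes summed to 14241 and 14250 in the WT pools and 13282 and 14223 in the KO pools, endothelial genes to 3065 and 3029 in the WT pools and 3076 and 3372 in the KO pools, and smooth muscle and pericyte genes to 11068 and 10751 in the WT pools and 11669 and 12373 in the KO pools, where no gene of the 3 lists passed in limma and 1 of each had an unadjusted p under 0.05. These were Pdgfra, a growth factor receptor of fibroblasts (0.52 ± 0.17), Kdr, a receptor of endothelial growth factor (0.46 ± 0.16), and Acta2, smooth muscle actin (0.19 ± 0.082). Macrophage genes summed to 1333 and 1486 in the WT pools and 1158 and 1131 in the KO pools, where 0 of 5 tested passed in limma and 1 had an unadjusted p under 0.05, namely Csf1r, a growth factor receptor of macrophages (-0.38 ± 0.13). All 5 differences were negative, and the groups did not overlap at 4 of them, where 22.5% of all probe sets tested were lower without overlap. Whether any of these cell types bears on the small differences of ADAMs, Timp2 or Mmp14 was not tested.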

How the data were processed

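Per the submitters' processing notes, the authors used MAS5, at a version the sources here do not give, to make each probe set's signal. The deposited signal is an intensity on a linear scale, with the same 2% trimmed mean of 150 on all 4 arrays. Per the file headers, the deposited files also hold for each probe set a p-value of detection, its call (Present, Marginal or Absent) and a signal log ratio, taken as log2, against a baseline array that is not named. The deposited table of the whole series held the same signals.

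Groups and replicate numbers came from the sample titles. From the 45101 probe sets, 64 controls were left out, and gene names came from the platform annotation, in which 34945 probe sets name 1 gene. All member symbols matched the RefSeq table. The 19065 probe sets called Present in both pools of a genotype were fitted as log2 signal, with signals of 0 set to 0.1, in limma 3.58.1 (R 4.3.3) with genotype as the factor and a variance trend. The p-values are two-sided, Benjamini-Hochberg adjusted over all 19065, with a threshold of 0.05, and ± is the moderated standard error. Precision is limited by having 2 arrays in each group. The fit was tested on simulated data. Folds against the lowest Present signals set the brighter group's mean log2 signal against, per array, the higher of the dim signal and the lowest signal called Present. Absent calls also fell on brighter probe sets, such as Timp2 1450040_at with 167 and 206 in the WT pools. These folds are therefore no strict lower bound.

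The members, lists and tests were chosen with earlier results of these data known. The genes named are 17 fixed members, members with unadjusted p under 0.05, members detected on both arrays of 1 group and on no array of the other, and, per list, those past the threshold and the 2 with the smallest p. Furin, the marker genes with values other than those past the threshold, and members outside that rule, were named after their values were seen. A planned search of protein motifs was not run. Alternatives were quantile normalization, an offset of 16, Present on all 4 arrays, no filter, a fit without the variance trend, a replicate block, each array left out and the signal log ratio.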

Additional observations from a re-analysis of the deposited data

How the results depend on the processing

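The count of 1 lower member probe set was the same with quantile normalization, an offset of 16 and no variance trend. It was 0 without the filter on detection, 0 in the signal log ratio and 0 where a probe set had to be Present on all 4 arrays, a filter that leaves Mmp13 out by construction. Over the whole array the lower count moved too. It was 183 in the fit reported, 165 with quantile normalization, 207 with the offset and 19 without the variance trend. Without the filter it was 30 of 45037, in the signal log ratio 0, and with Present calls on all 4 arrays 135 of 16420. The count of higher members was 0 under every alternative run. The 3 lower genes of the pathway lists became 0 without the filter, 0 without the variance trend and 0 in the signal log ratio. The causes were not tested beyond the filter. With the replicate block, 5 member probe sets and 7 genes of the pathway lists were lower, as were 450 of all 19065 probe sets tested. The numbers were not treated as pairs, since deviations of same-numbered arrays correlated at -0.0113 over the 19065 probe sets. Of 400 recalculated differences of the named probe sets, 362 kept their sign and side of the threshold, 2 came to exactly 0 (Adam17 1421857_at and Adam15 1438760_x_at in the signal log ratio), 10 passed it, 2 (Mmp13) lost it and 24 turned sign, none of them past it in the fit reported. In quantile normalization Adam15 turned to 0.047 (1416080_at) and -0.035 (1438760_x_at), Timp2 1454677_at to -0.030 and Adamts5 1456404_at to 0.0046. In the signal log ratio Adam15 1416080_at turned to 0.10, Timp2 1433662_s_at to 0.15, Adamts6 to -0.30 (1437506_at) and 0.050 (1457548_at), Mmp14 1440920_at to 0.10 and Adamts5 1450658_at to 0.050. With an array left out, the range crossed 0 for Adam15 (-0.15 to 0.10 and -0.14 to 0.14), Adam12 (-0.42 to 0.11), Adamts5 (-0.43 to 0.15 and -0.25 to 0.088), Mmp16 (-0.46 to 0.024), Mmp2 1439364_a_at (-0.89 to 0.16), Timp3 1449335_at (-0.0004 to 0.19), Timp2 (-0.16 to 0.19 and -0.13 to 0.020) and Timp1 (-0.078 to 0.25). Signals near the lowest Present values (4.10 to 6.90) limit the folds of dim probe sets.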
